A study of Caenorhabditis elegans with 2 samples.

Results

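The sites described here were chosen by the authors' signal values and positions in both replicates of a chromatin immunoprecipitation experiment (ChIP-seq) in Caenorhabditis elegans. They are 501 places on the nuclear chromosomes where each replicate listed an entry among its 5000 strongest. The authors name these lists peaks and background, so an entry need not be a called peak. Each replicate list was stripped of mitochondrial entries and ranked by the authors' signal value, a peak-caller score whose scale is not stated. The 5000 strongest nuclear entries of each list were kept. A replicate 1 entry is called a shared site when it overlapped a kept replicate 2 entry by at least 1 bp. This held for 501 of 5000 entries (10.02%, 95% interval 9.20 to 10.9). The other 4499 kept replicate 1 entries serve as the comparison and are called the other entries. The full lists held 29980 nuclear entries in replicate 1 and 29972 in replicate 2. Each shared site was matched to the strongest replicate 2 entry that overlapped it, which gave 496 distinct replicate 2 entries.

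The choice of sites used signal and position in both lists, so the number shared, the ranks and the signals are descriptions and carry no test. Annotation and sequence at the sites were not used in the choice. They are compared by shares with exact Clopper-Pearson 95% intervals over entries. Those intervals treat entries as independent and cover counting error only, not variation between cultures of worms.

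Both samples are whole L4 larvae of mixed sex from strain OP416, which carries unc-119(tm4063) on chromosome III and the integrated transgene wgIs416. The transgene makes the homeobox protein CEH-62 (R06F6.6) fused C-terminally to GFP and FLAG. The labels name the samples as biological replicates 1 and 2 of this single condition. The transgenic strain is a single line, and neither the sequence that drives the transgene nor the number of worms is given in the sources used here. Whole animals were used, so a site bound in a few cells and a site bound weakly in many cannot be told apart. Both lists were called against the same 1 control, and overlap that stems from this control cannot be told apart from overlap that stems from the immunoprecipitated samples.

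Homeobox proteins bind DNA through a homeodomain, a fold of helices of which one lies in the major groove and reads a short AT-rich core such as TAAT. Many of them specify cell types by acting on regulatory DNA near the genes they control. In C. elegans this DNA often lies within the short stretches between neighbouring genes. Many worm genes are also transcribed as operons, in which a spliced leader RNA of the SL2 type is joined to the transcripts of the downstream genes.

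The 8 sequences that follow are the replicate 1 summit and the 100 bp on either side of it at the sites that ranked best in both replicates, where the order is set by the worse of the 2 ranks. They are shown because the strongest sites of the set differ in position and in sequence. Letters are those of the ce11 (WBcel235) genome from RefSeq, plus strand, 5′ to 3′. Capitals mark the homeodomain core TAAT on either strand, written ATTA where the core lies on the minus strand. In the labels, between genes means between protein-coding genes, and the summit near C30E1.4 lay in a non-coding exon. The site near mstr-1, which ranks among these, is named below without its sequence.

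SL2 RNA gene sls-2.1 (chrII:5844806-5845006): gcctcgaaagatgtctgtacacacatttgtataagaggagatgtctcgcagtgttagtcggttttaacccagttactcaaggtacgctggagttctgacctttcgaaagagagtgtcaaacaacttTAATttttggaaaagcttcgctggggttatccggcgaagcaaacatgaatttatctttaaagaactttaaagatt
Upstream of cdc-48.1 (chrII:10563479-10563679): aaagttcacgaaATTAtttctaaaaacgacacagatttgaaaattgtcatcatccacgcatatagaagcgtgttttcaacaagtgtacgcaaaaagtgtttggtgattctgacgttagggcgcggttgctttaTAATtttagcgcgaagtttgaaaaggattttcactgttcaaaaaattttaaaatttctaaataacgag
Upstream of K12H4.5 (chrIII:8043889-8044089): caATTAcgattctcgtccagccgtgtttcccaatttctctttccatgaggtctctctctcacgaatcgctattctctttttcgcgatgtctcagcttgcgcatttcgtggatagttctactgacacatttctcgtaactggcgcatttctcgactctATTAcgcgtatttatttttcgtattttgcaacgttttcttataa
Between genes near F19H6.5 (chrX:12363138-12363338): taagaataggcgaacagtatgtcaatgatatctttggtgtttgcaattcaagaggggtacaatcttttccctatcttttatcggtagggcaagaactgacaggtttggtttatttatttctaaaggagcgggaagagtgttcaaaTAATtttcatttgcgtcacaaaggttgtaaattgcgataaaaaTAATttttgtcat
Far upstream of din-1 (chrII:11637239-11637439): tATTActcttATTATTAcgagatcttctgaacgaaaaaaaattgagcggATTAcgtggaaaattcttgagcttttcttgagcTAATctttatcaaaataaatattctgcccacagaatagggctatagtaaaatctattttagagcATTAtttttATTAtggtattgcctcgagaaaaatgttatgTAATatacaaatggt
Upstream of eelo-2 (chrIV:17249806-17250006): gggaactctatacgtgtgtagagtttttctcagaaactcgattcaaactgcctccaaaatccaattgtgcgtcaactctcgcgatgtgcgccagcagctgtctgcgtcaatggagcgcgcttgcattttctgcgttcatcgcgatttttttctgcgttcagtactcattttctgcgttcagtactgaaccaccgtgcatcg
Downstream of F09E10.1 (chrX:1503605-1503805): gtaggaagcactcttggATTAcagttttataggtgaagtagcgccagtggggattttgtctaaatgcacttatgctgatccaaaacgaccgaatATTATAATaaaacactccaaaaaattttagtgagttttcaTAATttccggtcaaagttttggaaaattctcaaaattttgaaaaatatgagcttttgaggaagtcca
Between genes near C30E1.4 (chrX:16930643-16930843): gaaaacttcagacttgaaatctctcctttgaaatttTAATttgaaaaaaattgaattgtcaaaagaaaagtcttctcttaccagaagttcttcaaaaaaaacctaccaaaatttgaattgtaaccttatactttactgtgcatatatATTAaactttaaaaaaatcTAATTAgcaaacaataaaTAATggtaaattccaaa

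These windows held between 0 and 8 copies of the core. The window of din-1, a gene for a protein that interacts with the nuclear receptor DAF-12, held 8 copies at a GC content of 28.9%. That of eelo-2, whose product has a peptidase domain, held 0 at a GC content of 48.3%. The window of cdc-48.1 held 2 copies and that of sls-2.1 held 1. All windows are centred on replicate 1 summits. The replicate 2 summit lay outside the window shown at din-1 (298 bp away), F09E10.1 (151 bp) and sls-2.1 (139 bp). High rank in both replicates thus occurred at sites whose replicate 1 window held many, few or no copies of the core. Copies around replicate 2 summits are not given here.

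The site with the best pair of ranks lay on an SL2 spliced leader gene. It spans chrII:5844744-5845067 and had signals of 29.6 in replicate 1 and 41.9 in replicate 2, at ranks 4 and 3 of those lists. Its summit fell 41 bp inside sls-2.1, in a gap of 633 bp between convergent protein-coding genes. A second site was beside sls-2.2, another SL2 gene, at chrII:5543392-5543715. Its signals were 23.7 in replicate 1 and 19.8 in replicate 2, and its summit lay 44 bp upstream of the gene. Spliced leader genes belong to families of similar copies, and how reads were placed among copies is not given in the sources used here.

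The site with the highest replicate 1 signal lay 172 bp upstream of cdc-48.1, the gene of a p97-type ATPase that extracts ubiquitinated proteins from complexes and membranes. It spans chrII:10563417-10563740. Its signal was 58.1 in replicate 1, where it ranked 1, and 37.2 in replicate 2, where it ranked 7. The summits of the replicates were 25 bp apart. K12H4.5, a gene for an uncharacterized protein, followed with signals of 24.8 in replicate 1 and 32.8 in replicate 2 at a summit 498 bp upstream of its start. The site beside F19H6.5 lay in a gap of 555 bp between convergent genes, 1666 bp from the nearest start, and had signals of 22.4 in replicate 1 and 37.2 in replicate 2.

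The site between tlf-1, which encodes a TBP-like factor, and cdk-8, which encodes the kinase of the Mediator complex, had signals of 20.3 in replicate 1 and 26.1 in replicate 2. Its summit was 78 bp upstream of tlf-1 and 415 bp upstream of cdk-8. The site between prp-8, which encodes the core U5 protein of the spliceosome, and bath-42 had signals of 20.6 in replicate 1 and 21.4 in replicate 2. The site upstream of npp-18, which encodes the nuclear pore protein SEH1, had signals of 17.9 in replicate 1 and 26.4 in replicate 2, with summits 6 bp apart. The sites around these in rank lay beside genes of other kinds, named in the next paragraph. In these 3 sites the replicate 2 signal was the larger number, but the scales of the lists are not stated and the sizes are not comparable between lists.

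Other sites among the first 30 lay upstream of mstr-1, Y48G1C.8, Y54G11A.2, F55H12.2, W01D2.3, epg-8, rpl-15, rpl-20 and kin-14. The epg-8 site ranked 5 in replicate 1 and 366 in replicate 2, and the W01D2.3 site ranked 7 in replicate 1 and 363 in replicate 2. The Y71H2AM.20 site had its summit 6 bp inside that gene. Others lay in introns of T26A8.4 and K07A12.8, or in the 3′ UTR of ppm-2 (a phosphatase gene whose nearest start was that of T23F11.2). Sites near F09E10.1, K02D3.1, T28B8.1, tag-353 and rps-15 lay between genes. The site near C30E1.4 lay between protein-coding genes, with its summit in a non-coding exon. K07A12.8 held 2 sites that overlapped the same replicate 2 entry. Such sharing was rare, since 10 of the 501 sites had a replicate 2 entry that another site also overlapped.

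Signal levels among the sites were mostly close to the lower limit of the kept lists. In replicate 1 the signal had a median of 14.1 and ran from 11.7 to 58.1, with a limit of 11.7 at rank 5000. In replicate 2 the median was 14.5 and the range 11.4 to 41.9, with a limit of 11.4. Across the 501 sites the signals had a Spearman correlation of 0.231, and across the 193 in promoter windows 0.242. These correlations are over sites that were selected for high signal in both lists and that share 1 control, and they have no p-value. At 81 sites the ranks differed by more than 10 times, and 263 sites ranked better in replicate 2. The column read as −log10 q gave a smallest q of 0.227 in replicate 1 and 0.0245 in replicate 2. With that reading, 0 shared sites had q under 0.05 in replicate 1 and 163 did in replicate 2.

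**Figure D1:**
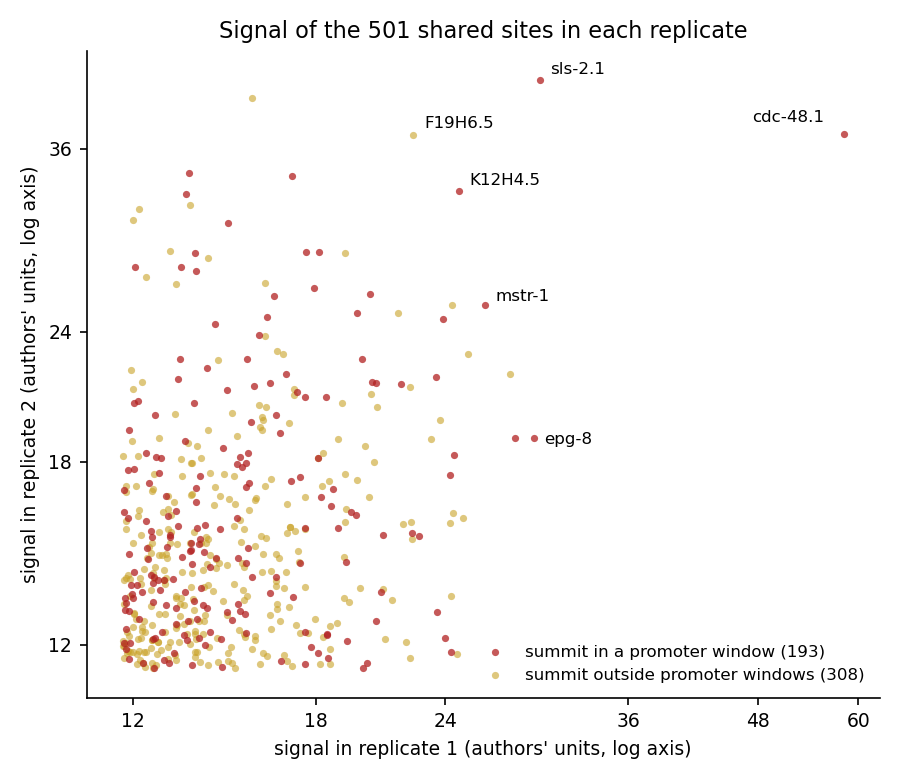
Each point is 1 of the 501 shared sites, with the authors' signal value in replicate 1 on the horizontal axis and in replicate 2 on the vertical axis, both logarithmic, and named sites are labelled by gene. The cdc-48.1 and sls-2.1 sites stand in the upper right, and most sites lie near the lower limits of 11.7 in replicate 1 and 11.4 in replicate 2.

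The share of replicate 1 entries that were shared was highest at the top of the list. Of the 100 strongest entries 36 were shared (36%, 95% interval 26.6 to 46.2). Among the next 400 entries the share was 17.25% (13.7 to 21.3), and at ranks 501 to 1000 it was 12.8% (9.999 to 16.05). Between ranks 1001 and 5000 it stayed between 7.6% and 9% per 1000 entries. The kept entries of replicate 2 covered 1.67% of the nuclear genome. That is a share of bases. Entries of 324 bp placed at random would overlap by 1 bp more often than this, and that share was not computed. Of the 501 sites, 38 were among the 500 strongest entries of both lists and 82 among the 1000 strongest of both.

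The summits of matched entries were a median of 109 bp apart, with quartiles of 42 and 193 bp and a maximum of 329 bp. Every nuclear entry was 324 bp long in replicate 1 and 336 bp in replicate 2, so the overlap rule itself limits this distance. The summits lay within 50 bp at 143 sites, and at 342 sites the replicate 1 summit fell inside the replicate 2 entry. For the 38 sites in the 500 strongest of both lists the median was 84.5 bp. For the 129 sites whose worse rank was between 4001 and 5000 it was 115 bp. Signed distances had a mean of 3.66 bp and an SD of 153 bp, so summits of replicate 2 lay to either side of those of replicate 1.

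The authors' pooled lists, made from the same alignments, held most of these sites. Of the shared sites 489 (97.6%) overlapped a pooled entry, against 71.2% of the other entries. The optimal list, derived by the irreproducible discovery rate method, held 27 nuclear peaks, of which 23 overlapped a shared site. The 4 others had their nearest protein-coding starts at tasp-1, T27A8.7, xol-1 and set-16. They ranked 1, 5, 15 and 23 in replicate 2, but 5265, 19872, 9336 and 5985 in replicate 1, outside the 5000 kept. These lists are not independent of the replicate lists.

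Position relative to genes was the first property that the choice did not use. A summit was counted in a promoter window when it lay at most 1000 bp before or 200 bp after the 5′ end of a protein-coding gene. This held for 193 of 501 shared sites (38.5%, 95% interval 34.2 to 42.9) and for 1168 of 4499 other entries (26.0%, 24.7 to 27.3). The intervals did not overlap. Shared sites were on average stronger, with a median replicate 1 signal of 14.1 against 13.4 among the other entries. When the other entries were weighted to the replicate 1 ranks of the shared sites, their promoter share was 26.99%. When weighted to the GC content of the shared sites, it was 26.0%. Neither weighting took account of strength in replicate 2. The 501 strongest entries of replicate 2 alone, taken with no regard to replicate 1, had 47.5% in promoter windows. The rest of that kept list had 29.3%. The 501 strongest of replicate 1 alone had 35.3%, against 26.3% of the rest. Whether the promoter share of shared sites goes beyond what strength in replicate 2 gives was not tested. By replicate 1 rank, the promoter share of shared sites was the higher one in 6 of 7 bins. The exception was ranks 501 to 1000, with 23.4% of shared sites and 27.5% of other entries. At ranks 1 to 100 the shares were close, at 44.4% of shared sites and 42.2% of other entries.

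**Figure D2:**
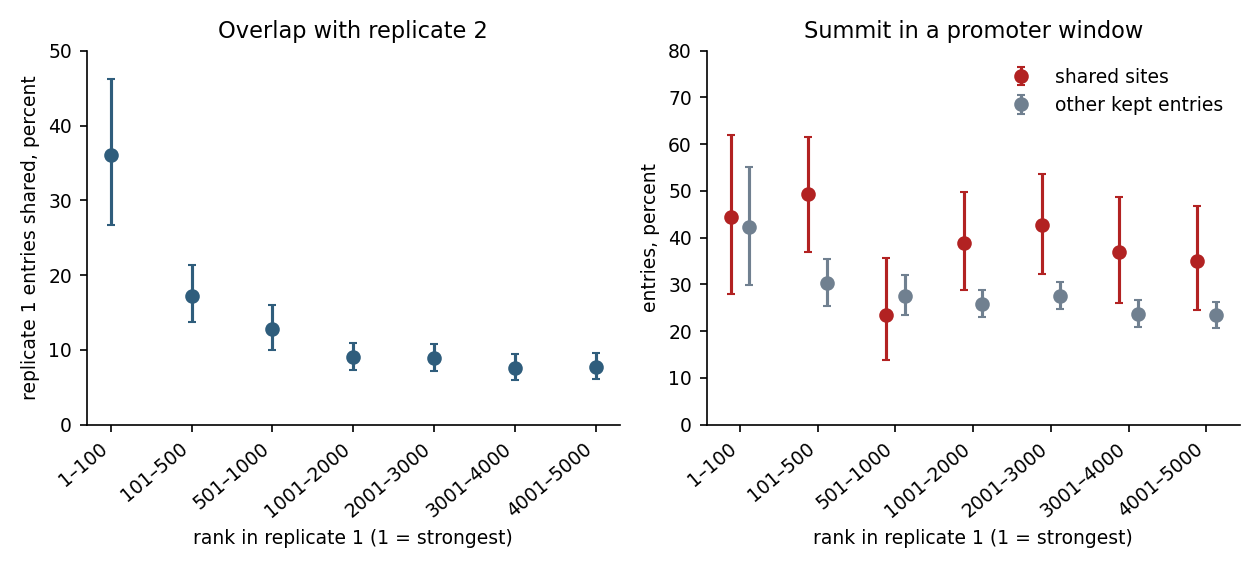
The left panel plots the percent of replicate 1 entries that were shared with replicate 2 against replicate 1 rank, and the right panel the percent of shared sites (red) and of other entries (grey) with a summit in a promoter window, all with 95% intervals. The shared percent is 36% at ranks 1 to 100 and 7.7% at ranks 4001 to 5000, and the promoter percent of shared sites is higher in 6 of 7 bins.

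Summits placed between divergent genes were counted separately. Promoter windows of genes on both strands held 47 shared summits (9.38%, 95% interval 6.97 to 12.3) and 128 other summits (2.85%, 2.38 to 3.37). Of the 47, 37 lay in the gap between divergent genes and 10 inside a protein-coding gene. Besides tlf-1 and cdk-8, the first of these pairs included prp-4 with dhfr-1, lin-53 with nra-2, eef-1A.1 with rfc-4, gsp-2 with F56C9.10 and gsr-1 with madf-8. The dhfr-1 gene encodes dihydrofolate reductase, and gsr-1 encodes glutathione reductase. These summits are also part of the promoter share, so the shares are not separate. With the same overlaps described as replicate 2 entries, the share on both strands was 9.06% of 508 shared entries (6.71 to 11.9) and 5.54% of 4492 others (4.89 to 6.25), a smaller difference with intervals still apart. The promoter share was then 39.6% of shared entries (35.3 to 43.97) and 30.1% of others (28.8 to 31.5). The 501 strongest entries of replicate 2 alone, taken with no regard to replicate 1, had 13.4% on both strands. The rest of that kept list had 5.07%. The 501 strongest of replicate 1 alone had 7.19% on both strands, against 3.09% of the rest.

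Gene ends showed a similar difference. The summit lay in a 3′ UTR at 56 shared sites (11.2%, 95% interval 8.55 to 14.3) and at 243 other entries (5.40%, 4.76 to 6.10). This share was chosen after its values were seen. Of the 56 summits, 17 were also in the promoter window of another gene. The 39 outside promoter windows made up 7.78% of shared sites (5.59 to 10.5), against 3.53% of other entries (3.01 to 4.12). With the overlaps described as replicate 2 entries, 3′ UTRs held 8.66% of shared entries (6.36 to 11.5) and 5.99% of others (5.31 to 6.72), and the intervals overlapped. They also overlapped when summits had to lie within 150 bp, at 9.38% of shared sites (6.41 to 13.1) and 5.75% of other entries (5.10 to 6.45). Weighting the other entries to the ranks of the shared sites gave 5.46%, and weighting to their GC content gave 5.28%. The 501 strongest entries of replicate 1 alone, taken with no regard to replicate 2, had 6.39% in 3′ UTRs, against 5.93% of the rest of that list's 5000. The 501 strongest of replicate 2 alone had 8.98%, against 5.96% of the rest.

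The 3′ UTR sites with the best ranks were those of ppm-2, mstr-1, dyc-1, M01G5.1, F42A9.11, ant-1.1, R151.2, mef-2, W03C9.5, lgg-1, nra-1 and alh-1. The dyc-1 product acts in muscle, ant-1.1 encodes a mitochondrial ADP/ATP carrier, lgg-1 encodes a homologue of the autophagy protein Atg8, and mef-2 encodes a MADS-box transcription factor. The ant-1.1 summit was also 273 bp from the start of kel-3, and the W03C9.5 summit was 37 bp from the start of rab-7, which encodes a small GTPase of late endosomes. The dyc-1 site had signals of 16.7 in replicate 1 and 22.8 in replicate 2, with summits 34 bp apart, and its window also held the tRNA gene C33G3.t2. The hsp-1 gene, which encodes the constitutive HSP70, had a site 36 bp upstream of its start and another just past its end, where the summit fell in the 3′ UTR of nra-1. That second site had signals of 22.3 in replicate 1 and 15.2 in replicate 2.

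Distance to gene ends was described too, but it counts many of the same summits as the 3′ UTR and promoter shares. It is thus not a separate result. Like the 3′ UTR share, it was chosen after its values were seen, and it was not recomputed under other settings. Summits within 300 bp of the 3′ end of a protein-coding gene made up 25.3% of shared sites (95% interval 21.6 to 29.4) and 14.03% of other entries (13.02 to 15.1). Summits within 300 bp of a 5′ end made up 24.2% of shared sites (20.5 to 28.1) and 14.4% of other entries (13.4 to 15.4). The median distance to the nearest start was 1066 bp for shared sites and 1483 bp for other entries. To the nearest 3′ end it was 1287 bp for shared sites and 1894 bp for other entries. Summits that were neither in a promoter window nor within 300 bp of a 3′ end made up 46.1% of shared sites (41.7 to 50.6) and 66.3% of other entries (64.9 to 67.6).

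**Figure D3:**
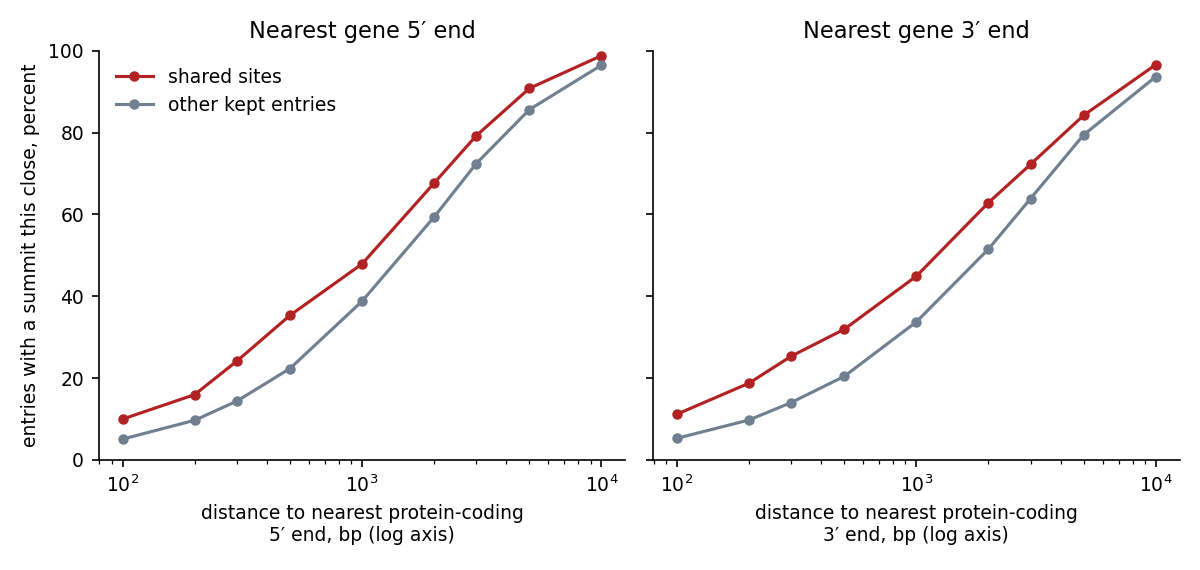
The curves give the percent of shared sites (red) and of other entries (grey) whose summit lay within a given distance, in bp on a logarithmic axis, of the nearest protein-coding 5′ end (left) or 3′ end (right). Shared sites lie above the other entries at each distance plotted, with 35.3% against 22.3% within 500 bp of a 5′ end and 31.9% against 20.4% within 500 bp of a 3′ end.

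Introns held fewer of the shared summits. They held 128 shared summits (25.5%, 95% interval 21.8 to 29.6) and 1661 other summits (36.9%, 35.5 to 38.3). The first intronic sites outside promoter windows lay in T26A8.4, K07A12.8, T04D3.8, phf-15, mop-25.1 and srh-2. Coding exons outside promoter windows held 35 shared summits (6.99%, 4.91 to 9.58) and 485 other summits (10.8%, 9.89 to 11.7). These intervals did not overlap, by a narrow margin. With summits within 150 bp the shares were 7.19% of shared sites and 10.6% of other entries. Intervals for these coding exons under other settings are not given here, nor are intron shares under other settings. The shared summits in coding exons included those in rme-1, which acts in endocytic recycling, mef-2, and syp-3, which encodes a component of the synaptonemal complex. Over all coding exons the intervals overlapped, with 12.2% of shared sites (9.44 to 15.4) and 14.4% of other entries (13.4 to 15.5). The shares in 5′ UTRs (2.40% of shared sites and 1.71% of other entries) and in non-coding exons (2.99% and 2.71%) had overlapping intervals too.

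Between genes lay 229 shared summits (45.7%, 95% interval 41.3 to 50.2) and 1746 other summits (38.8%, 37.4 to 40.3). The gap around a shared summit outside protein-coding genes had a median length of 2463 bp, against 4893 bp for other entries. Gaps between divergent genes held 19.96% of shared summits (16.5 to 23.7) and 14.7% of other summits (13.7 to 15.8). Gaps between convergent genes held 5.99% of shared summits (4.08 to 8.44) and 3.40% of other summits (2.89 to 3.97). Gaps between genes of the same direction held 22.95% of shared summits and 23.3% of other summits. Sites in convergent gaps included 4 of the first 9 in rank, those at sls-2.1, F19H6.5, F09E10.1 and C30E1.4.

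**Figure D4:**
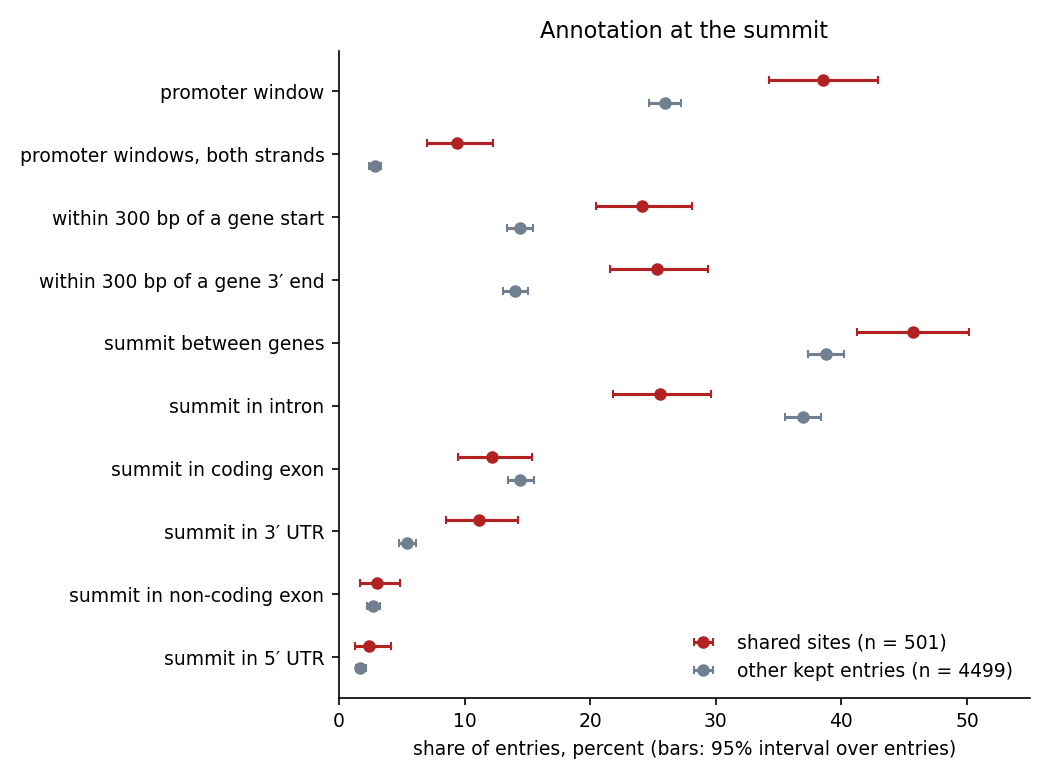
Points give the percent of shared sites (red, upper of each pair, n = 501) and of other entries (grey, n = 4499) whose summit has the annotation named on the vertical axis, with 95% intervals over entries. Shared sites are higher in promoter windows (38.5% against 26.0%) and 3′ UTRs (11.2% against 5.40%) and lower in introns (25.5% against 36.9%).

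Promoter windows with a shared summit belonged to 242 protein-coding genes of 19973 annotated. Those with another entry belonged to 1294, and 15 genes had both. Of the 242 genes, 185 belonged to none of the 38 gene classes examined, and 6 had 2 or more shared sites. A class is described here by the percent of entries with a class gene in the window. Over all protein-coding genes that percent was 38.5% of shared sites and 26.0% of other entries. Several genes can share 1 site, and intervals of small counts are wide.

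Cytosolic ribosomal protein genes, which encode the protein part of the ribosome, had 8 of 81 genes beside a shared site. These 8 sites made up 1.60% of shared sites (95% interval 0.692 to 3.12), while 12 other entries beside 12 genes of the class made up 0.267% (0.138 to 0.465). The genes were rpl-20, rpl-15, rpl-5, rps-19, rpl-3, rps-18, rps-12 and rpl-13. The rpl-15 site had signals of 18.1 in replicate 1 and 28.7 in replicate 2, with summits 17 bp apart. The rps-19 site had 14.8 in replicate 1 and 30.6 in replicate 2, and the rpl-13 site had 24.3 in replicate 1 and 11.8 in replicate 2. The rpl-13 site was thus high in replicate 1 and near the limit in replicate 2. The summits of rpl-20, rpl-15, rpl-5, rps-19, rpl-3 and rps-18 lay between 192 and 383 bp upstream of the ribosomal gene, that of rps-12 lay 33 bp upstream and that of rpl-13 388 bp upstream. The rpl-20 site is also in the windows of cyc-2.1 and Y17G9B.5, and the rpl-15 site in that of K11H12.8. The rpl-5 site is also in the window of col-38, the rps-12 site in that of ska-3 and the rps-18 site in that of sec-61.A. The rps-19 site is also in the window of hsr-9, whose start was nearer, at 111 bp against 334 bp for rps-19. Of translation factors, eef-1A.1, which encodes elongation factor 1-alpha, was beside a site it shared with rfc-4, so the class made up 0.200% of shared sites (0.00505 to 1.11) and 0.0889% of other entries (0.0242 to 0.227). Mitochondrial ribosomal protein genes were beside 0 shared sites (upper limit 0.734%) and 8 other entries (0.178%), so a lower share among shared sites was not detectable.

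Splicing and mRNA processing genes were beside 6 shared sites (1.20%, 95% interval 0.441 to 2.59) and 7 other entries (0.156%, 0.0626 to 0.320). They were prp-8, prp-4, lsm-5, lsm-3, lsm-6 and mog-7. The LSM proteins form a ring on the U6 snRNA, and 3 of them were in this group. The lsm-5 site had signals of 24.2 in replicate 1 and 17.5 in replicate 2 at a summit 240 bp upstream. The lsm-3 summit lay 959 bp upstream, and 136 bp upstream of mdt-9, its neighbour in the same window. Cell cycle and DNA replication genes were beside 6 shared sites (1.20%, 0.441 to 2.59) and 5 other entries (0.111%, 0.0361 to 0.259). They included rfc-4, a clamp loader subunit, mcm-6, a subunit of the replicative helicase, cdk-5 and sld-2. The remaining genes of that class were cdc-48.1 and cdk-8, which other classes hold as well. The class was drawn by gene name. It thus holds the p97-type ATPase and the Mediator kinase named above, and sld-2, whose reference product name is a ribosome biogenesis protein. The share without such genes was not computed, so the separation of these intervals may not be that of cell cycle genes.

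Chaperone genes were beside 6 shared sites (1.20%, 95% interval 0.441 to 2.59) and 13 other entries (0.289%, 0.154 to 0.494). They were hsp-1, dnj-12, the prefoldin genes pfd-1 and pfd-3, and hsp-60, the mitochondrial chaperonin. The hsp-1 site had signals of 17.6 in replicate 1 and 20.8 in replicate 2, and that of pfd-1 had 13.3 in replicate 1 and 27.7 in replicate 2. Nuclear genes of oxidative phosphorylation were beside 4 shared sites (0.798%, 0.218 to 2.03) and 7 other entries (0.156%, 0.0626 to 0.320), intervals that overlapped. They were cyc-2.1 (cytochrome c), nduc-2 and ndua-1 (complex I) and cox-5A (complex IV). The cox-5A site had a signal of 34.1 in replicate 2, where it ranked 10, and 13.6 in replicate 1, where it ranked 2402. Tubulin and actin genes gave a similar case in tba-2, which ranked 14 in replicate 2 and 2470 in replicate 1. That class was beside 1 shared site (0.200%) and 3 other entries (0.0667%).

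Chromatin regulators were beside 4 shared sites (0.798%, 95% interval 0.218 to 2.03) and 14 other entries (0.311%, 0.170 to 0.522), intervals that overlapped. They were lin-53, a histone-binding protein of several chromatin complexes, mes-2, the worm E(z) methyltransferase, set-26, and swsn-3, a protein of SWI/SNF-type remodelling complexes. The remaining housekeeping classes with any shared site had 1 or 2 each, with overlapping intervals. Nuclear pore genes were beside 1 shared site, that of npp-18 (0.200%), and 5 other entries (0.111%), and proteasome genes beside 1, that of rpn-13 (0.200%), and 6 other entries (0.133%). The ubiquitin pathway had skr-16 and cdc-48.1 beside 2 shared sites (0.399%) and 9 other entries (0.200%). General transcription had cdk-8, tlf-1 and mdt-9 beside 2 shared sites (0.399%) and 8 other entries (0.178%).

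For classes of cell-type identity and tissue function the counts were small in both groups and the intervals overlapped. Homeobox genes were beside 1 shared site (0.200%, 95% interval 0.00505 to 1.11) and 5 other entries (0.111%, 0.0361 to 0.259). The gene was ttx-1, an Otx-type gene needed by thermosensory neurons, with signals of 13.9 in replicate 1 and 12.2 in replicate 2, both near the limits. Nuclear hormone receptor genes were beside 4 shared sites (0.798%, 0.218 to 2.03) and 18 other entries (0.400%, 0.237 to 0.632), and the genes were nhr-174, nhr-58, nhr-135 and nhr-105. The class of other transcription factors had madf-8 and ztf-3, at 0.399% of shared sites and 0.222% of other entries. Collagen and cuticle genes had col-38 and nas-4, at 0.399% of shared sites and 0.378% of other entries. Neuropeptide genes had flp-34 and nlp-4, at 0.399% of shared sites and 0.200% of other entries. Germline genes had mex-1 and ego-1, at 0.399% of shared sites and 0.133% of other entries. Muscle genes had unc-45, beside 1 shared site (0.200%) and 1 other entry (0.0222%). Synaptic genes had unc-64, the syntaxin gene, beside 1 shared site (0.200%) and 3 other entries (0.0667%). In each of the classes just named the percent was higher among shared sites, by counts too small to separate the intervals. It was higher over all protein-coding genes as well, at 38.5% of shared sites and 26.0% of other entries. Chemoreceptor, C-type lectin, intestine and major sperm protein genes, given next, had the lower percent among shared sites.

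Chemoreceptor genes, the largest protein-coding class with 1364 genes, were beside 2 shared sites (0.399%, 95% interval 0.0484 to 1.43) and 53 other entries (1.18%, 0.884 to 1.54). The genes were sra-32 and srw-100. Pseudogenes were beside 3 shared sites (0.599%, 0.124 to 1.74) and 78 other entries (1.73%, 1.37 to 2.16). Both pairs of intervals overlapped. No shared site was beside a gene of the classes for histones, mitochondrial ribosomal proteins, aminoacyl-tRNA synthetases, the vacuolar ATPase, or cohesin, condensin and dosage compensation. The same held for C-type lectins, intestine genes, major sperm proteins and rRNA. A count of 0 of 501 sites allows a share of up to 0.734% (upper Clopper-Pearson limit). The other entries gave 0 to 10 for these classes, so a lower share among shared sites was not detectable for them.

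Genes of small RNAs were counted with the same window around their own starts. The tRNA genes had 15 genes beside 13 shared sites (2.59%, 95% interval 1.39 to 4.40), against 44 other entries (0.978%, 0.711 to 1.31). The best ranked were T04D3.t4, C33G3.t2 and Y82E9BR.t1. The Y82E9BR.t1 site had signals of 24.97 in replicate 1 and 15.9 in replicate 2. MicroRNA genes had 11 genes beside 7 sites (1.40%, 0.564 to 2.86), against 15 other entries (0.333%, 0.187 to 0.549). They included mir-52, mir-5549, mir-80, and the clusters of mir-229 with mir-64 and of mir-54, mir-55 and mir-56, each cluster sharing 1 site. The mir-52 site had signals of 16.5 in replicate 1 and 23.005 in replicate 2 at a summit 181 bp downstream of the gene's start. Described as replicate 2 entries, miRNA genes were beside 4 of 508 shared entries (0.787%, 0.215 to 2.00) and 22 others (0.490%, 0.307 to 0.741), and the intervals overlapped. They overlapped as well with 2500 entries per list, where 3 shared sites (1.40%, 0.289 to 4.02) and 13 other entries (0.569%, 0.303 to 0.971) were beside miRNA genes.

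Small nucleolar RNA genes had 9 genes beside 7 sites (1.40%, 95% interval 0.564 to 2.86), against 30 other entries (0.667%, 0.450 to 0.951), and the intervals overlapped. K11H12.12 and K11H12.13 are in the window of the rpl-15 site, F54E7.10 and F54E7.11 are in that of the rps-12 site, and C06A1.9 is in that of the cdc-48.1 site. The snRNA and spliced leader class held sls-2.1, sls-2.2 and R07E5.16, at 0.599% of shared sites (0.124 to 1.74) and 0.111% of other entries (0.0361 to 0.259). Windows of piRNA genes held 35 shared sites (6.99%, 4.91 to 9.58) and 390 other entries (8.67%, 7.86 to 9.53). Other non-coding RNA genes were in windows of 8.58% of shared sites and 7.65% of other entries, and lincRNA and antisense genes in 0.599% and 0.356%. Many small RNA genes exist as near-identical copies, and the placement of reads among copies was not tested.

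**Figure D5:**
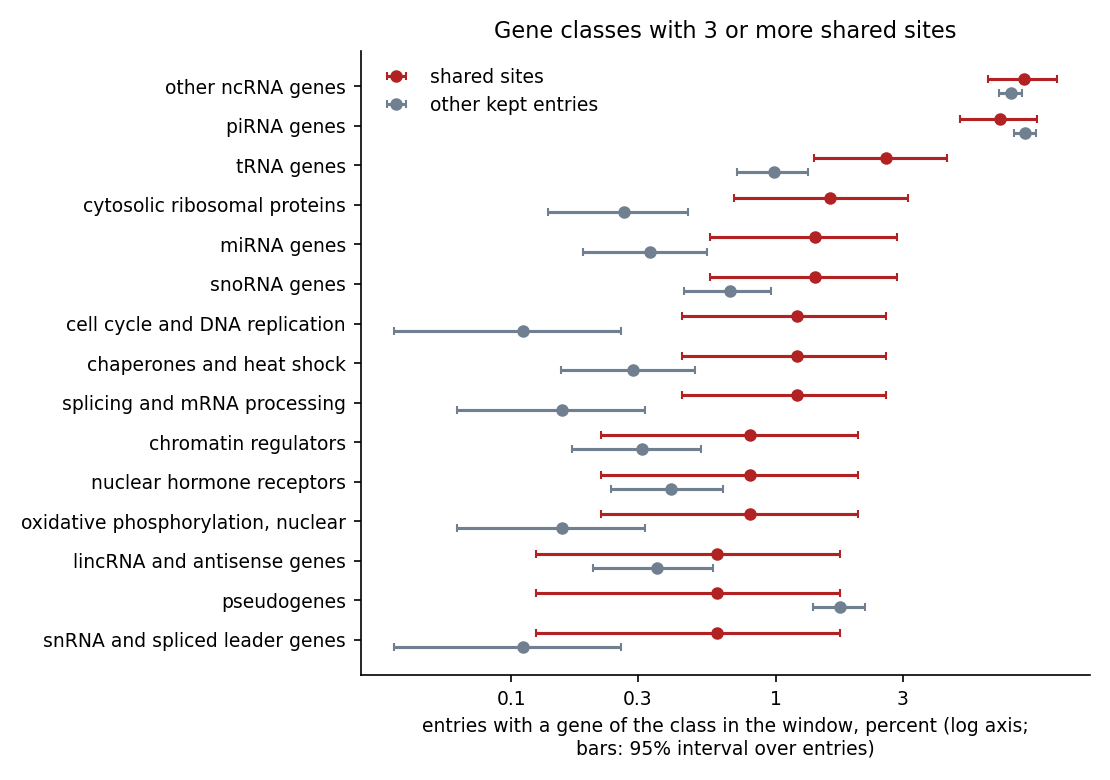
Points give the percent of shared sites (red, upper of each pair) and of other entries (grey) with a gene of the class in the window, on a logarithmic axis with 95% intervals, for classes with 3 or more shared sites. The intervals are apart for tRNA, cytosolic ribosomal protein, miRNA, cell cycle and splicing genes, and overlap for the piRNA, snoRNA and chromatin classes.

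The separation of these intervals depended on the list described. With the overlaps taken as replicate 2 entries, the shares of shared entries stayed above those of others for these 5 classes, but the intervals were apart for splicing genes only, at 1.38% (95% interval 0.556 to 2.82) against 0.334% (0.187 to 0.550). Cytosolic ribosomal protein genes then had 8 shared entries (1.57%, 0.682 to 3.08) and 21 others (0.467%, 0.290 to 0.714). The tRNA genes had 16 shared entries (3.15%, 1.81 to 5.06) and 81 others (1.80%, 1.43 to 2.24). Cell cycle genes had 6 shared entries (1.18%, 0.435 to 2.55) and 16 others (0.356%, 0.204 to 0.578). With 2500 entries per list the intervals were apart for splicing and cell cycle genes and overlapped for the other 3 classes. With summits within 150 bp they overlapped for miRNA and tRNA genes, and with 10000 entries per list for miRNA and cell cycle genes.

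Base composition and short words were close between the groups. The GC content of these windows around the summit was 32.5% ± 6.22 (SD, n = 501 sites) for shared sites and 31.9% ± 5.91 (n = 4499 entries) for other entries, a difference well inside either SD. Sequence that the reference marks as repetitive made up 41.7% of shared windows and 43.03% of other windows on average. The homeodomain core TAAT, searched on both strands, was present in 90.6% of shared windows and 90.5% of other windows, with a median of 3 copies in each group. It was in 89.8% of windows of all nuclear replicate 1 entries, so its presence could differ little between groups. Windows are centred on replicate 1 summits, and the matched replicate 2 summits lay a median of 109 bp away. The longer word TAATTA, which contains TAAT, was present in 15.8% of shared windows (95% interval 12.7 to 19.3), 12.2% of other windows (11.3 to 13.2) and 11.4% of windows of all 29980 nuclear replicate 1 entries. Weighted to the GC content of shared sites, the share of other windows was 11.8%.

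Among the remaining words, GAGAG was in 24.95% of shared windows (95% interval 21.2 to 28.98) and 20.3% of other windows (19.1 to 21.5), and in 20.7% of all windows. CCAAT was in 30.7% of shared windows (26.7 to 35.0) and 35.5% of other windows (34.1 to 36.9). A run of 8 adenines was in 28.1% of shared windows and 31.1% of other windows. TATAAA was in 28.7% of shared windows and 27.2% of other windows. The word TTTCAG, found at worm 3′ splice sites, was in 39.1% of shared windows and 38.2% of other windows. The word GATAAG, common before intestinal genes, was in 7.78% of shared windows and 6.91% of other windows. The E-box word CACGTG was in 2.99% of shared windows and 2.69% of other windows, and CTGCGTCTC was in 0.599% and 0.845%. For all 10 words searched on both strands, the intervals of the groups overlapped. A match to such a word is a description of the letters and not a binding site.

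The chromosomes held unequal parts of the set. Chromosome I held 22.2% of shared sites (95% interval 18.6 to 26.1) and 16.2% of other entries (15.1 to 17.3), while it makes up 15.03% of the nuclear genome. Chromosome III held 21.8% of shared sites (18.2 to 25.6) and 17.1% of other entries (16.05 to 18.3). Chromosome V held 13.97% of shared sites (11.1 to 17.3) and 18.6% of other entries (17.4 to 19.7). Chromosome X held 11.4% of shared sites and 13.8% of other entries, chromosome II 11.0% and 14.03%, and chromosome IV 19.8% and 20.4%.

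Some sites lay in groups. Joining sites no more than 10 kb apart gave 11 groups of 3 or more. The largest had 6 sites over 22.6 kb of chromosome I, near syp-3, K07A12.8 and hot-5. It includes both K07A12.8 sites, which overlapped the same replicate 2 entry. A group of 4 lay near pqn-26 and mfb-1, and groups of 3 lay near kin-14 and mstr-1, at npp-18 and pgm-2, at hsp-1 and zipt-7.1, and at mef-2. The pgm-2 sites in the group with npp-18 likewise overlapped a single replicate 2 entry. Groups among the other entries are not given here. The nearest shared summit was 242 kb from ceh-62, the tagged gene, and 21.8 kb from unc-119. The other entries had 0 summits within 20 kb of ceh-62 and 2 within 20 kb of unc-119.

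At the limits of the choice, the values inside and outside were alike. The shared site with the lowest replicate 1 signal, 11.7 at rank 4995, lay in an intron of egl-19, a calcium channel gene. The one with the lowest replicate 2 signal, 11.4 at rank 4962, lay in an intron of daf-2, the insulin receptor gene, 20710 bp from its start. A site in a coding exon of csnk-1 overlapped its replicate 2 entry by 1 bp, with summits 329 bp apart. Just outside, an entry near C36B1.9 ranked 5007 in replicate 1 and overlapped the entry of rank 79 in replicate 2. An entry near srg-21 overlapped a replicate 2 entry of rank 5001, and one near F41C3.11 missed its neighbour by 1 bp. In all, 31 of the 4499 other entries lay less than 50 bp from a kept replicate 2 entry.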

How the data were processed

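ChIP-seq was run on 2 biological replicates of 1 condition, per the labels. The authors' deposited lists hold a fixed number of ranked entries per replicate, made from the alignments of the replicate and of 1 control, per the deposited file inventories. The signal value is the authors' score per entry, on a scale not stated. Another column of the deposited lists was read as −log10 of a q-value by the narrowPeak layout. Depth is unknown, and no source used here names the aligner or the peak caller. The control was not analysed here.

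Mitochondrial entries were dropped, each list was ranked by signal, and 5000 entries per list were kept. A shared site was a replicate 1 entry with 1 bp or more of overlap. Coordinates are ce11, counted from 1, with gene models from Ensembl release 115 and sequence and product names from RefSeq (WBcel235). The ce10 lists gave only the shared percent. Gene classes were 38 lists of gene names or biotypes. Words were searched from 100 bp before to 100 bp after each summit. Overlap code was checked on simulated lists. Intervals are exact Clopper-Pearson at 95%. Tools were Python 3.11.15, pandas 2.3.3, numpy 2.4.6, SciPy 1.17.1 and matplotlib 3.10.9.

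The sites, gene classes and words were chosen with earlier results of these data known, and no test was run on them. The text names the first 30 sites by the worse of their replicate ranks, up to 12 genes per class, and the sites at the limits of the rule. The 3′ UTR and gene-end shares and their genes, the optimal peaks outside the set and the groups of neighbouring sites were chosen after their values were seen. Sequence is given for 8 of the first 9 sites.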

Additional observations from a re-analysis of the deposited data

How the results depend on the processing

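Of the values recomputed under another setting, 92 kept their direction and stayed within the spread, 21 moved and 3 changed direction. Keeping 1000, 2500 or 10000 entries per list gave shared percents of 8.2, 8.6 and 15.05. Requiring at least 50% of the shorter entry to overlap gave 6.84%, and summits within 150 bp gave 6.4%. Both rules limit how far apart entries of fixed length may lie, so they are not separate checks. The ce10 lists gave 10.3%. With 1000 entries, shared sites had 47.6% in promoter windows, 17.1% in windows on both strands, 2.44% in coding exons outside promoter windows and 8.54% in 3′ UTRs. With 2500 they had 4.65% in those coding exons and 2.79% beside splicing genes. With 10000 they had 6.64% in windows on both strands and 8.11% in 3′ UTRs. A window of 500 bp upstream to 100 bp downstream gave 28.9% in promoters and 4.99% on both strands, and one of 2000 to 500 bp gave 53.5% and 14.8%. Starts of all transcripts gave 45.7% in promoters. In each of these cases shared sites and other entries differed in the same direction as before. Intervals of several gene classes and of 3′ UTRs then overlapped, as given beside those results.

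The direction turned for GC content with replicate 2 entries as the sites (33.7% in shared sites and 34.1% in other entries), and without replicate 2 (31.8% and 31.99%). It also turned for piRNA genes with replicate 2 entries as the sites (7.09% and 5.92%). Using the 501 strongest entries of 1 list alone gave 35.3% to 47.5% in promoters, 7.19% to 13.4% on both strands, 5.19% to 5.59% in coding exons, 6.39% to 8.98% in 3′ UTRs and a GC content of 31.8% to 35.4%. The causes of these changes were not tested. The alternatives for 3′ UTRs, cell cycle genes and chaperone genes, and weighting promoter shares by GC content, were chosen after seeing the data. No paired analysis was possible because both samples belong to 1 group.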
